A study of Mus musculus with 2 samples.

Results

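Notch signalling was followed here through 10 genes: the receptors Notch1, Notch2, Notch3 and Notch4, the ligands Dll1, Dll3, Dll4, Jag1 and Jag2, and the glycosyltransferase gene Lfng. They were picked by gene symbol in the annotation of the array, and they are 10 of 16444 named genes. Each had 1 probe, so no choice between probes was needed. The arrays came from Flk-1-positive early mesodermal cells made from mouse embryonic stem cells. In the gene-trapped cells both alleles of AU019823 were disrupted by an inserted cassette, and the revertant cells were derived from them and have, per the labels, a genotype close to wild type. Both were grown on OP9 stroma, a mouse bone marrow line that promotes blood formation, and sorted for Flk-1, the protein of Kdr. The labels give a coculture of 4 days in the protocol and day 4.5 in the sample descriptions. There was 1 array per group, from 300000 gene-trapped and 350000 revertant cells. Every difference therefore compares these 2 libraries, without a replicate, a standard error or a p-value. The samples carry different codes that may be clones, and in that case clone and genotype cannot be told apart.

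Notch receptors are single-pass membrane proteins that are activated by ligands on a neighbouring cell. Ligand binding exposes the receptor to an ADAM protease and then to gamma-secretase, and the freed intracellular part enters the nucleus, where it joins RBPJ and Mastermind to switch on genes such as those of the Hes and Hey families. In the early embryo the pathway times the formation of somites in presomitic mesoderm. It also sets the arterial fate of endothelium and is needed for definitive blood stem cells to arise from it. Ligands can also block receptors of their own cell, and fringe enzymes such as Lfng change which ligands a receptor answers to.

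The array signal is the median brightness of a spot in the Cy5 channel. A probe was called above background when that signal exceeded the mean of the 2736 blank spots by more than 2 SD, a limit of 22.3 on the gene-trapped array and 24.99 on the revertant array. The median probe signal was 38.6 on the gene-trapped and 47.5 on the revertant array, so raw signals were lower in general on the gene-trapped array and were normalized before comparison. Differences are gene-trapped minus revertant on the log2 scale, after background correction with an offset of 50, which makes differences of dim probes smaller than the ratio of their signals. Of the 16444 genes, 13753 were above background on both arrays. Kdr itself had signals of 537 in gene-trapped and 1025 in revertant cells, a log2 difference of -0.65 (1.57-fold lower). The size of the Kdr difference varied with the processing. It was 4.12-fold lower with the scanner's local background subtracted before the same offset and normalization, and 1.49-fold lower in the authors' deposited table. AU019823 had signals of 297 in gene-trapped and 486 in revertant cells, a log2 difference of -0.39, and the position of its probe relative to the trap is not given in the sources used here. All 10 markers listed for Flk-1-positive mesoderm were above background on both arrays, with differences in both directions and a median of 0.07. At least 1.5-fold higher were Etv2 (2.47-fold) and T (1.69-fold), factors of hemangioblast and streak, and at least 1.5-fold lower were Kdr and the blood factor gene Tal1 (-0.69). That makes 2 of 10 in each direction, where 2.28% of the 13753 genes were that much higher and 3.52% lower.

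All 10 Notch genes were above background on both arrays, but 4 of them, Notch2, Dll4, Jag1 and Lfng, lay within 5 SD of the blank mean on at least 1 array. Dll3 was the member with a difference of at least 1.5-fold, and it was higher in gene-trapped cells. That makes 1 of 10 members, where 2.28% of the 13753 genes were at least 1.5-fold higher. In the other direction 0 of 10 members were at least 1.5-fold lower, against 3.52% of all genes. At the larger size of 2-fold, 0 of 10 members were higher and 0 lower, against 0.334% and 1.08% of all genes. The members' median log2 difference was 0.06 and that of all genes 0.01, and 8 of 10 members lay above 0, as did 53.3% of all genes. With the scanner's local background subtracted the members' median was -0.01, as was that of all genes.

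**Figure D1:**
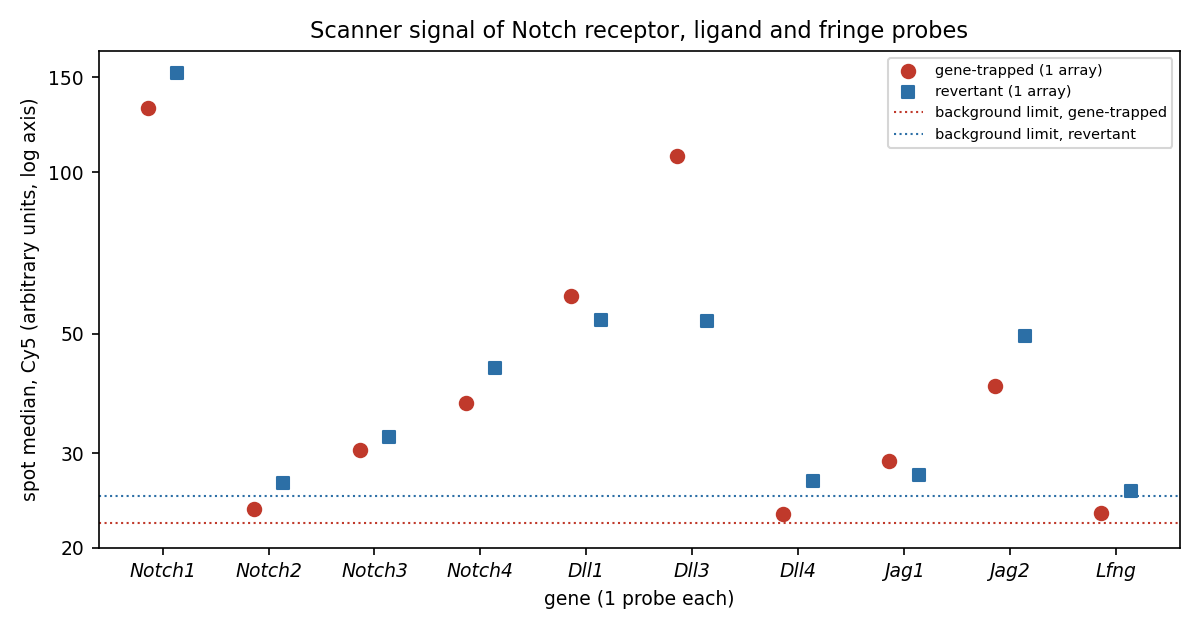
Scanner signal (spot median in the Cy5 channel, arbitrary units, log axis) of the 10 genes, with 1 point per array, gene-trapped as circles and revertant as squares, and dotted lines at each array's background limit (22.3 and 24.99). Dll3 has 107 on the gene-trapped and 52.9 on the revertant array, while Notch2, Dll4 and Lfng lie close to the limits; heights of different probes are not comparable with each other.

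The promoters of Dll3 and Dll1 are shown because these Delta-like genes had the largest differences of the set in the reported setting (in the authors' deposited table Jag1 exceeded Dll1), and that of Hes5 because it is a classical Notch target. The sequences are RefSeq's (assembly GRCm38.p6), run 5′ to 3′ in the direction of the gene, and span 250 bases before to 50 after an annotated start. Capitals mark the RBPJ core TGGGAA and the T-box core GGTGTG on either strand, which do not overlap each other here. The windows are chr7:28301736-28302035 (minus strand) for Dll3, chr17:15376883-15377182 (minus strand) and chr17:15375774-15376073 (minus strand) for the upstream and downstream starts of Dll1, and chr4:154960673-154960972 (plus strand) for Hes5.
Dll3: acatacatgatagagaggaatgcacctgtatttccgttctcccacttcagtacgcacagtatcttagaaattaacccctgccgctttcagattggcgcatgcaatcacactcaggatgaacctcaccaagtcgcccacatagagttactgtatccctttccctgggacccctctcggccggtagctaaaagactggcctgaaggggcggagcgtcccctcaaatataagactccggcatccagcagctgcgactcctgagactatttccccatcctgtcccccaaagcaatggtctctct
Dll1, upstream start: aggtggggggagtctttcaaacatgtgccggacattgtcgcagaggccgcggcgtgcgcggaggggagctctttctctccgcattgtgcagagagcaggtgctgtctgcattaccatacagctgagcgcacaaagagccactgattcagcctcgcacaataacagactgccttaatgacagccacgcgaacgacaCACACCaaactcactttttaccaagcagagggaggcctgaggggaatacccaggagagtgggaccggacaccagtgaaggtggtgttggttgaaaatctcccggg
Dll1, downstream start: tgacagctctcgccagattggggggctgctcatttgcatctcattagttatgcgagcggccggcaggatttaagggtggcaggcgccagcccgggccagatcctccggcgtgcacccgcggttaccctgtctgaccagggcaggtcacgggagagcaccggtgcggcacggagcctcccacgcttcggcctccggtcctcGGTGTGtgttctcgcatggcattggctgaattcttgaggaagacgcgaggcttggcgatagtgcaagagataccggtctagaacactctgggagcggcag
Hes5: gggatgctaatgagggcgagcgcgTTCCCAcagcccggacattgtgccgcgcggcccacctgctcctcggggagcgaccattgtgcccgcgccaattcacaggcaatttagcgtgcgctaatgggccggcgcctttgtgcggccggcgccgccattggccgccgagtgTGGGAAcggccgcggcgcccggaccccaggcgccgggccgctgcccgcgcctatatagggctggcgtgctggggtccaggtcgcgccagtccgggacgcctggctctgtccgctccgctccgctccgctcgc
The T-box core, bound by factors such as brachyury (T) and Tbx6, stood in both Dll1 windows, beginning 55 bases before the upstream start and 50 bases before the downstream start. It was in 3 of the 11 promoter windows of the 10 genes, those of Dll1 and that of Notch4, and in 19.0% of 32851 mouse promoter windows. The RBPJ core was found at 2 places in the Hes5 window and at 2 in that of Lfng, which made 1 of 11 member windows against 25.6% of all. The core CTTTGA of TCF and LEF factors, which act downstream of WNT, was in 1 of 11, that of Jag1, and in 5257 of the 32851. The Dll3 window held none of the 3 motifs. These matches describe letters and not binding.

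Among the receptors, no gene differed by 1.5-fold. Notch1, the receptor most needed for arterial fate and the emergence of blood stem cells, had signals of 132 in gene-trapped and 153 in revertant cells (probe M300005379). After normalization its log2 signal was 7.50 in gene-trapped and 7.38 in revertant cells, a difference of 0.12. Its signal lay 104 blank SDs above the blank mean on the gene-trapped array and 103 on the revertant array. Notch4, which is expressed mainly in endothelium, had signals of 37.1 in gene-trapped and 43.2 in revertant cells and a log2 difference of 0.04. Notch3, known for its role in vascular smooth muscle, had signals of 30.5 in gene-trapped and 32.1 in revertant cells and a log2 difference of 0.08. Notch2, a receptor with broad roles in kidney, liver and B cells, was close to background, with 23.6 on the gene-trapped and 26.4 on the revertant array and a log2 difference of 0.02. At 3.26 and 3.12 blank SDs above the blank mean on the gene-trapped and revertant arrays, a loss of Notch2 could not have been measured. The 4 receptors had a median log2 difference of 0.06, and their differences spanned 0.02 to 0.12.

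The Delta-like ligands differed among themselves. Dll3 lacks the ability to activate receptors on neighbouring cells and acts inside its own cell as an inhibitor, and in the mouse it is required for regular somites. Its probe M200003176 had a signal of 107 in gene-trapped and 52.9 in revertant cells, or 86.8 and 30.4 above the blank mean. The gene-trapped array was thus brighter for Dll3, although its median probe was dimmer. The normalized log2 signal of Dll3 was 7.27 in gene-trapped and 6.31 in revertant cells, a difference of 0.96 (1.94-fold higher), which ranked 55 from the top among the 13753 genes. In the authors' deposited table, which holds background-subtracted linear intensities, Dll3 had 74.1 in gene-trapped and 20.02 in revertant cells, or 3.70-fold higher. Over 9 ways of processing, the difference of Dll3 ran from 0.54 with the scanner's local background subtracted to 1.89 in the authors' deposited table. It was at least 1.5-fold in 8 of the 9, missing that size with the local background subtracted and the offset kept. Spots beside it on the slide did not share the difference: 28 spots within 2 rows and 5 columns had a median log2 difference of 0.03 and ran from -0.16 to 0.48. As a measure of spread between probes, 142 genes with several probes above background had a median gap between probes of 0.12 on the log2 scale, with a 90th percentile of 0.46. This gap comes from the same 2 arrays and holds no variation between cultures, sorts or arrays. Dll3 has no probe besides this one with which to repeat that check. In a sorted bulk sample, more cells with the transcript and more transcript per cell cannot be told apart.

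Dll1 is the ligand that activates Notch in presomitic mesoderm. It had signals of 58.8 in gene-trapped and 53.0 in revertant cells, again brighter on the gene-trapped array, and a log2 difference of 0.30 (1.24-fold higher). That value lies below the 1.5-fold size and below the 90th percentile of the gap between probes of a gene (0.46). In the authors' deposited table Dll1 had 33.1 in gene-trapped and 20.1 in revertant cells (1.64-fold higher), whereas with the local background subtracted its log2 difference was -0.01. Dll4, the ligand of arterial endothelium, was near background on both arrays, with signals of 23.1 in gene-trapped and 26.6 in revertant cells, 2.78 and 3.28 blank SDs above the blank mean. Its log2 difference was -0.0044, and at this signal a loss of Dll4 could not have been measured.

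**Figure D2:**
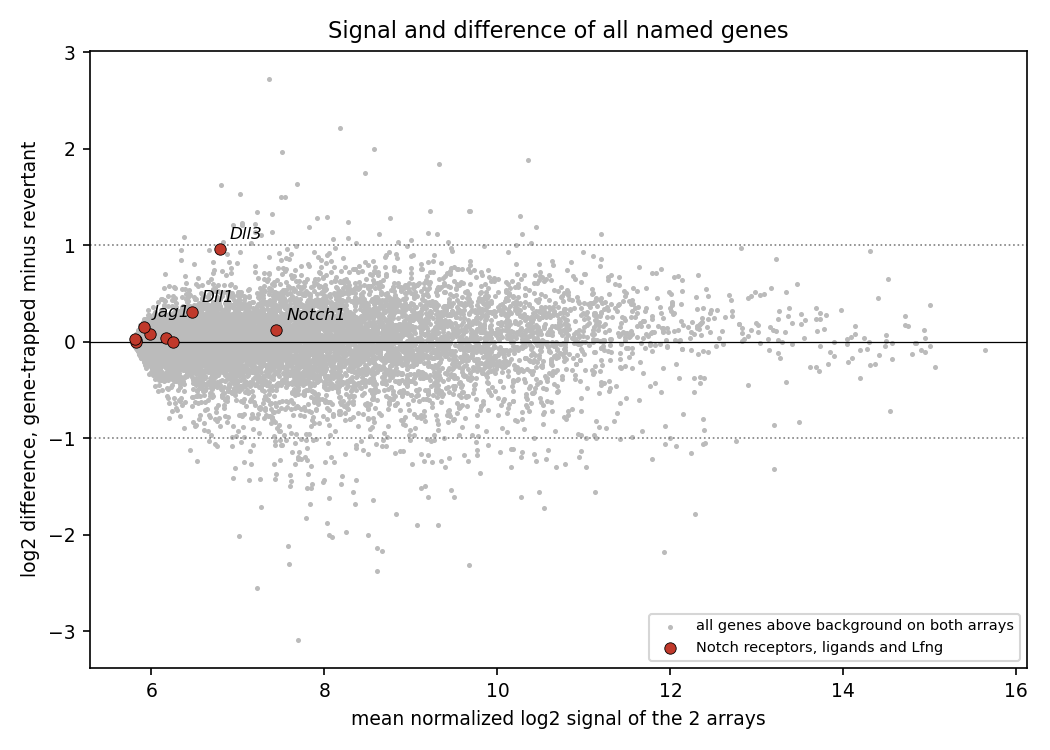
Mean normalized log2 signal of both arrays (x axis) against the log2 difference, gene-trapped minus revertant (y axis), for 13753 genes in grey and the 10 Notch genes in red, with dotted lines at 2-fold. Dll3 lies at 0.96, just inside the upper line, Dll1 at 0.30 and Notch1 at 0.12, and the other members have values from -0.0044 to 0.15.

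Of the Jagged ligands, Jag1 acts in arteries, heart and inner ear, and Jag2 in limb, palate and thymus. Jag1 had signals of 29.1 in gene-trapped and 27.4 in revertant cells, 8.36 and 3.88 blank SDs above the blank mean, and a log2 difference of 0.15. In the authors' deposited table it had 7.67 in gene-trapped and 3.24 in revertant cells, which is 2.36-fold higher. The ratio of the signals above the blank mean was 1.83, and that of the raw signals 1.06. The size of the Jag1 difference therefore changes with the treatment of the background. Jag2 had signals of 40.0 in gene-trapped and 49.6 in revertant cells, normalized log2 signals of 6.25 in both, and 17.0 in gene-trapped against 17.8 in revertant cells in the authors' deposited table. Its signal lay 18.6 blank SDs above the blank mean on the gene-trapped array and 21.5 on the revertant array, and the arrays were nearly level for it after normalization.

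Lfng, which lengthens the O-linked fucose on Notch and oscillates in the mouse segmentation clock, was at the edge of detection. Its signals were 23.2 in gene-trapped and 25.5 in revertant cells, 2.93 and 2.41 blank SDs above the blank mean, with a log2 difference of 0.02. The other fringe genes were nearly level between the arrays. Mfng had signals of 39.2 in gene-trapped and 48.0 in revertant cells (log2 difference 0.00), and Rfng had 47.5 in gene-trapped and 56.4 in revertant cells (log2 difference 0.04).

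Dll3 and Jag1, 2 of the 10 genes, were at least 2-fold higher in gene-trapped cells in the authors' deposited table, where 2.01% of 14203 genes were, and 0 were at least 2-fold lower, against 4.02%. At 1.5-fold the count was 3, with Dll1 added, against 8.82% of genes, and 0 members were 1.5-fold lower against 10.9%. The table subtracts about the mean of the blank spots without adding an offset, so dim probes have larger ratios in it. Subtracting the scanner's local background, with the offset of 50 and quantile normalization kept, left 0 members at least 1.5-fold higher, with Dll3 closest at 0.54. Without an offset or normalization, the Dll3 signals less the local background were 82.1 in gene-trapped and 32.2 in revertant cells, a ratio of 2.55.

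**Figure D3:**
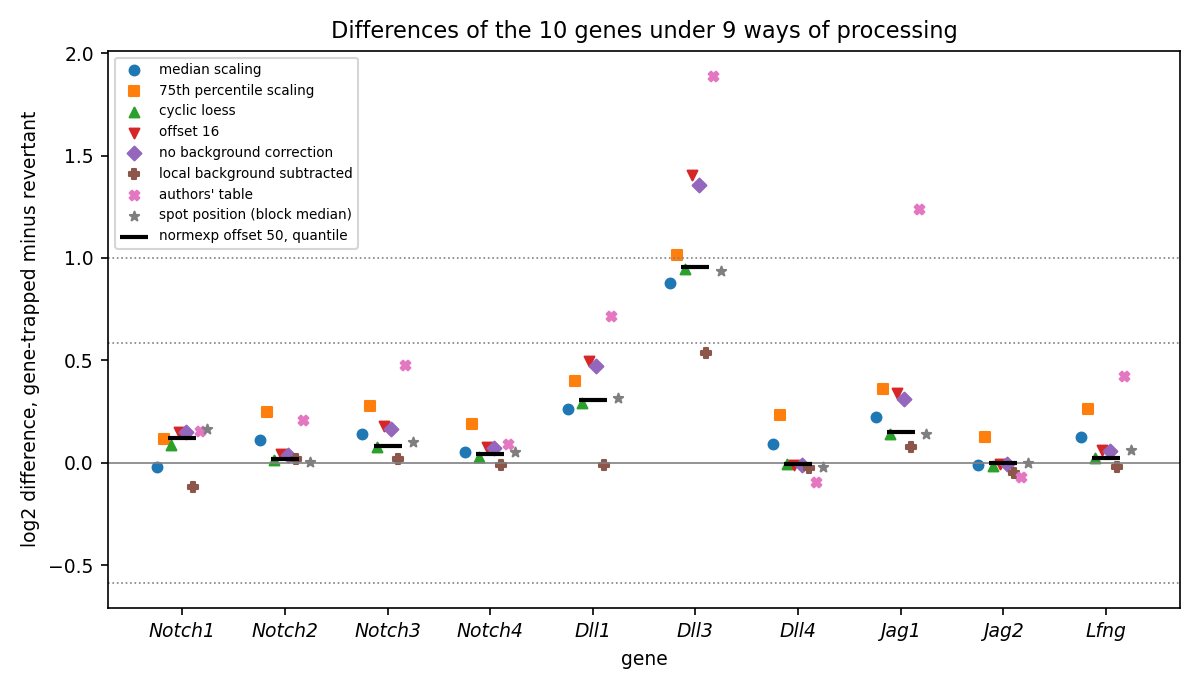
Log2 difference, gene-trapped minus revertant, of each of the 10 genes under 9 ways of processing, with the black bar for normexp with offset 50 and quantile normalization and dotted lines at 1.5-fold either way and at 2-fold higher. Dll3 stays above 0 in all 9, from 0.54 to 1.89, as do Notch2, Notch3 and Jag1. Jag1 passes 2-fold in the authors' table alone (1.24), and Jag2 stays between -0.07 and 0.13.

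The rest of the pathway was described with 7 lists of its parts, which together hold 106 genes on the array besides the 10 members. Of these, 97 were above background on both arrays, with a median log2 difference of 0.00. At least 1.5-fold higher were 2 genes (2.06%, against 2.28% of all genes), and 3 were at least 1.5-fold lower (3.09%, against 3.52%). Both shares are near the background. The 2 higher genes were T and Snai1, and the 3 lower ones were Snai2, Egfl7 and Rspo3. With the local background subtracted 0 of these 5 passed 1.5-fold, with log2 differences of 0.39 for T, 0.15 for Snai1, -0.56 for Snai2, 0.15 for Egfl7 and -0.47 for Rspo3. Snai1 also missed that size under median scaling (0.55). Other list genes passed 1.5-fold once the local background was subtracted. Nedd4 (2.10), Spen (0.63) and Mesp1 (0.62) were higher, and Kat2a, listed as Gcn5l2, was lower (-0.64). For Nedd4 and Spen the local background exceeded the spot signal on the revertant array. The share of all genes past 1.5-fold in that setting was not counted. Nrarp, a target on the same lists, was not analysed here.

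Among genes that modify ligands and receptors, 0 of 19 above background were 1.5-fold higher and 1 was lower, against 2.28% and 3.52% of all genes. That gene was Egfl7, which encodes a secreted protein of endothelium that can bind Notch. Egfl7 had signals of 797 in gene-trapped and 1477 in revertant cells, a log2 difference of -0.64 (1.56-fold lower). Mib1, the ubiquitin ligase that lets a cell's ligands signal, had signals of 74.8 in gene-trapped and 89.8 in revertant cells and a log2 difference of 0.07. The non-canonical ligand gene Dlk1 had 121 in gene-trapped and 175 in revertant cells, a log2 difference of -0.14.

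The proteases that cut Notch were all within 1.5-fold, with 9 of 9 measured genes above background on both arrays and a median of -0.05. Adam17 had the largest difference, 0.34, with signals of 148 in gene-trapped and 143 in revertant cells. Adam10, the main protease of ligand-induced cleavage, had 244 in gene-trapped and 369 in revertant cells, a difference of -0.25. The gamma-secretase subunit genes Psen2 and Ncstn had log2 differences of -0.20 and -0.05. Among 11 genes of receptor trafficking and decay, again 0 passed 1.5-fold in the reported setting. Both lists are short, and over all genes 2.28% were that much higher and 3.52% lower. Epn1, an epsin needed to take up bound ligand, had 0.40, the ubiquitin ligase gene Fbxw7, which clears active Notch, had 0.35, and the inhibitor gene Numb had -0.30. The nuclear complex had 0 of 18 genes past 1.5-fold, where 2.28% of all genes were that much higher and 3.52% lower. Rbpj, listed under its older name Rbpsuh, had signals of 157 in gene-trapped and 212 in revertant cells and a log2 difference of -0.05. Within this group the corepressor gene Ncor1 lay lowest at -0.41 and Spen highest at 0.17.

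Classical targets gave no common direction. Hes1 had signals of 290 in gene-trapped and 311 in revertant cells, a log2 difference of 0.19, and Hey1 had 94.4 in gene-trapped and 106 in revertant cells, a difference of 0.15. Hes5, whose promoter is printed above with its RBPJ cores, had 94.5 in gene-trapped and 142 in revertant cells, a difference of -0.16. Hey2, which acts in arteries and heart, had 31.7 in gene-trapped and 53.9 in revertant cells, a difference of -0.27 and -1.06 in the authors' deposited table. Hes7, the oscillating repressor of the segmentation clock, had 36.9 in gene-trapped and 45.1 in revertant cells, a difference of 0.00, and Heyl was below the background limit on both arrays. Of 16 target genes above background, 1 was at least 1.5-fold higher and 1 lower, against 2.28% and 3.52% of all genes, and they are related repressors. In the authors' deposited table, 1 was higher and 4 were lower by that size, of 17 with values, against 8.82% and 10.9% of all genes. Snai1 had signals of 71.5 in gene-trapped and 47.3 in revertant cells (log2 difference 0.60, 1.52-fold higher). Snai2 had 39.6 in gene-trapped and 192 in revertant cells (log2 difference -1.41, 2.66-fold lower). Both encode zinc-finger repressors of epithelial genes and answer to many signals besides Notch.

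**Figure D4:**
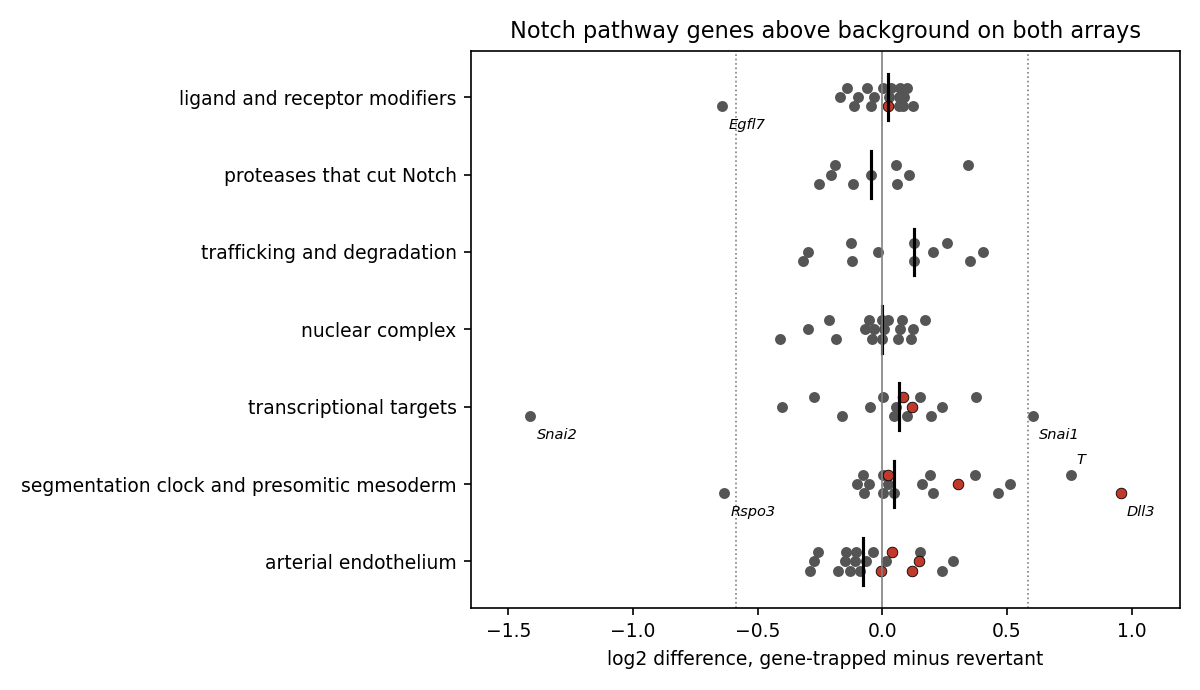
Log2 differences, gene-trapped minus revertant, of the pathway genes above background on both arrays, 1 row per list, with the 10 Notch genes in red, a black bar at each list's median and dotted lines at 1.5-fold. Points past 1.5-fold are named; Snai2 lies furthest left at -1.41 and Dll3 furthest right at 0.96.

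Dll1, Dll3 and Lfng belong to the gene set of the segmentation clock and presomitic mesoderm. That list had 19 genes above background, of which 2 were at least 1.5-fold higher, Dll3 and T, and 1 lower, Rspo3, with a median of 0.05. Over all genes those shares were 2.28% and 3.52%. In the authors' deposited table, 6 of the list's 20 genes with values were at least 1.5-fold higher, against 8.82% of all genes, and 0 lower, against 10.9%. They were Dll3 (3.70-fold), T (2.06-fold), the WNT regulator gene Dact1 (1.83-fold), Msgn1 (1.65-fold), Dll1 (1.64-fold) and Mesp1 (1.59-fold), while Rspo3 was 1.48-fold lower there. T, the brachyury factor of streak and nascent mesoderm, had signals of 188 in gene-trapped and 129 in revertant cells, a log2 difference of 0.76 (1.69-fold higher). Tbx6, a T-box factor that acts on Dll1 in the mouse, had 90.6 in gene-trapped and 97.0 in revertant cells, a difference of 0.20. Mesp2, which positions somite borders, had 105 in gene-trapped and 115 in revertant cells, a difference of 0.19. Rspo3, a WNT enhancer, had 515 in gene-trapped and 975 in revertant cells, a difference of -0.63. Beside these stand the markers of paraxial mesoderm as a cell type, of which the 4 on the array (Tbx6, Meox1, Msgn1 and Pax3) are also on the list above. Their summed value in the authors' deposited table, which puts both arrays on the same median, was 113 in gene-trapped and 107 in revertant cells, and 3 of 4 on the array were above background on both, 0 of them past 1.5-fold. Msgn1, a defining marker of presomitic mesoderm, was barely over the limit on the gene-trapped array (22.8) and below it on the revertant array (24.6).

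Arterial endothelium, the other setting in which Dll4, Notch4, Notch1 and Jag1 are best known, had 20 genes above background and 0 past 1.5-fold, with a median of -0.08. Over all genes 2.28% were that much higher and 3.52% lower. In the authors' deposited table, 7 of the list's 21 genes were at least 1.5-fold lower, against 10.9% of all genes, and 1, Jag1, was higher, against 8.82%. The 7 were the kinase gene Bmx (2.32-fold), Hey2 (2.08-fold), the receptor gene Acvrl1 (1.84-fold), Sox17 (1.75-fold), Epas1 (1.64-fold), Sox18 (1.57-fold) and Mecom, listed as Evi1 (1.55-fold). In the reported setting these ran from -0.29 (Acvrl1) to -0.09 (Mecom), with Bmx at -0.11. Bmx was close to background on the gene-trapped array, at 23.1 or 2.76 blank SDs above the blank mean, and Mecom lay 6.08 above it there. Efnb2, an arterial ephrin, had signals of 255 in gene-trapped and 268 in revertant cells, a difference of 0.24. General endothelial markers differed in the other direction from Efnb2. All 7 that were above background on both arrays lay below 0, with a median of -0.29. Of all genes 53.3% lay above 0, with a median of 0.01. Pecam1 had 53.7 in gene-trapped and 215 in revertant cells, and Tek had 42.9 in gene-trapped and 187 in revertant cells. Cdh5 was above background on the revertant array only, at 29.7, against 22.2 in gene-trapped cells. The summed value of the 8 markers in the authors' deposited table was 90.6 in gene-trapped and 329 in revertant cells. Pecam1 (28.6 in gene-trapped, 126 in revertant) and Tek (19.5 and 108) made up most of it. These were the 2 markers, of 7 above background on both arrays, at least 1.5-fold lower in the reported setting, against 3.52% of all genes. At least 1.5-fold higher were 0 of the 7, against 2.28% of all genes. The part of endothelial RNA in the values of the arterial genes was not tested.

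OP9 and fibroblast markers also differed. The 7 markers with values in the authors' deposited table summed to 1252 in gene-trapped and 2890 in revertant cells. Acta2 made up most of this, and without it the sums were 250 in gene-trapped and 536 in revertant cells. Of 7 above background on both arrays, 0 were 1.5-fold higher and 3 were lower, against 2.28% and 3.52% of all genes. Dcn was below the limit on both arrays. The part of stromal RNA in the values of Notch genes was not tested. Neuroectoderm, where Dll1 and Dll3 are also expressed, had 2 of its 4 markers above background on both arrays. These were Otx2, with 311 in gene-trapped and 141 in revertant cells, and Sox3, with 26.2 in gene-trapped and 28.2 in revertant cells. Otx2 is also a gene of epiblast and anterior mesendoderm. Pax6 and Neurog2, which define neural progenitors, were below the limit on both arrays. Of 4 blood markers above background on both arrays 0 were 1.5-fold higher and 2 were lower, Gata1 and Itga2b, against 2.28% and 3.52% of all genes. The 4 markers of pluripotent cells all lay within 1.5-fold in the reported setting.

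**Figure D5:**
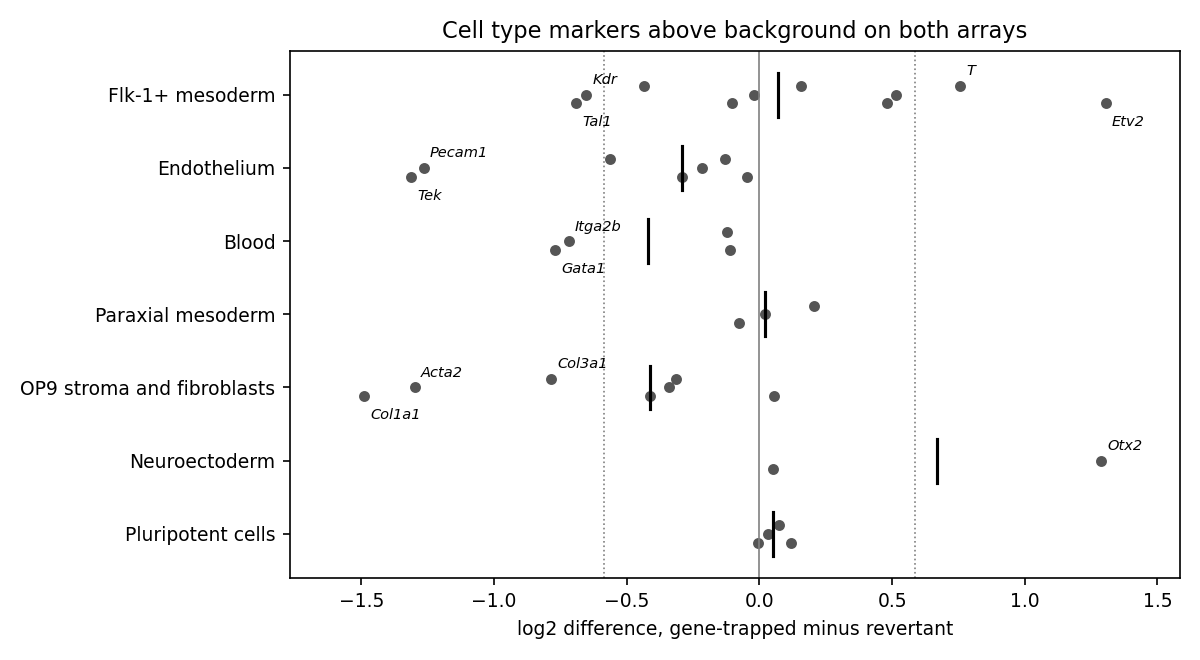
Log2 differences, gene-trapped minus revertant, of cell type markers above background on both arrays, 1 row per cell type, with a black bar at each median and dotted lines at 1.5-fold. Endothelial markers lie wholly below 0 (median -0.29), paraxial mesoderm markers lie near 0 (median 0.02), and of the neuroectoderm row Otx2 lies at 1.29.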

How the data were processed

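Total RNA of 2 samples was amplified with an amino allyl kit, coupled to Cy5 and hybridised to TORAY arrays, per the labels' protocols. The deposited scanner files hold linear spot intensity, joined from 3 scanner gains by least squares per the file headers. The authors' deposited table of processed intensity followed a straight line against the scanner values: the signal less 20.1 (gene-trapped) or 22.4 (revertant), scaled so that each column has a median of 25. Why some of its cells are empty is not given in the sources used here.

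Intensities of all spots were corrected with normexp (offset 50, without the local background column) in limma 3.58.1 under R 4.3.3, and 23472 unflagged gene probes were quantile-normalized and put on the log2 scale. The local background column was left out as in an earlier treatment of these data, where it followed spot brightness. No measure of that relation is given here, and Dll3 falls below 1.5-fold when the column is subtracted. In the setting that subtracts it, the offset of 50 and quantile normalization were kept. Python 3.11.15, numpy 2.4.6 and pandas 2.3.3 summarised the tables. Names came from the platform annotation: 16630 probes have 1 symbol, 6842 none and 0 several. The brightest probe stood for a gene. The 24 spots of each of the 2 positive controls had SDs of the log2 ratio of 0.108 and 0.0989, a technical spread between spots. The number of arrays limits the precision, and size rules of 1.5- and 2-fold replace a test. The procedure was tested on simulated data in which only bright probes were changed, all brighter than every Notch gene here. That test therefore could not show how well differences of the members are recovered.

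The members, the 7 lists, the markers and the 11 alternatives were chosen with earlier results of these data known. Named genes are the members, list genes past 1.5-fold (up to 5 a list) and a fixed set of pathway genes. A further few, given as the extreme or best-known values of a list (Dlk1, Adam17, Adam10, Psen2, Ncstn, Epn1, Fbxw7, Numb, Ncor1 and Spen), were chosen after their values were seen. So were genes named for passing 1.5-fold in the authors' table or with the local background subtracted. No gene is named for a pattern like a member's, since 2 arrays hold no pattern beyond 1 difference.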

Additional observations from a re-analysis of the deposited data

How the results depend on the processing

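No paired analysis was possible because the study holds a single array of each genotype, and none could be left out. The members' median of 0.06 became 0.26 under 75th percentile scaling, which moves the median of all genes to 0.15. In the authors' table it was 0.32, and that of all genes 0.02. Members at least 2-fold higher, 0 in the reported setting, numbered 1 (Dll3) under 75th percentile scaling, with offset 16 and without background correction. Under 75th percentile scaling Dll3 stood just past that size, at 1.01. In the authors' table they numbered 2, where 2.01% of all genes were that much higher. The shares of all genes past 1.5- and 2-fold were counted only for the reported setting and the authors' table. Those at least 1.5-fold higher, 1 as reported, numbered 0 after subtraction of the local background and 3 in the authors' table, and 0 were at least 1.5-fold lower in every setting run. Other pathway genes at least 1.5-fold higher, 2 as reported, numbered 1 under median scaling, 1 after correction for spot position and 7 in the authors' table. After subtraction of the local background they numbered 3, with neither T nor Snai1 among them. Those lower, 3 as reported, numbered 13 in the authors' table, 7 of them on the arterial list. After subtraction of the local background the lower genes numbered 1, Kat2a, which is not one of the 3 reported. Of all genes in the authors' table, 8.82% were that much higher and 10.9% lower. A smaller offset, or none, widens the ratios of dim probes by construction. For the other settings the cause was not tested. Signal close to background limits what can be said of Notch2, Dll4, Jag1 and Lfng.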
